A study of Mus musculus with 6 samples.

Results

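The protein subunits of oxidative phosphorylation were followed in the RNA of RAW 264.7 cells, a mouse macrophage line, as a set of 99 genes. Members were the protein-coding genes whose mouse symbols carry the names of the subunits of complexes I to V: the mt-Nd, mt-Co, mt-Atp and mt-Cytb genes, Nduf genes of the a, b, c, s and v series, Sdha to Sdhd, the Uqcr genes, Cyc1, the Cox4 to Cox8 genes and the Atp5 genes. Of the 55335 genes in the table, 111 matched these names, and 12 of them were left out because they are not protein-coding. The 99 members were 13 genes of mitochondrial DNA and 86 nuclear genes. The match is by name: it takes in Cox7a2l, a supercomplex assembly factor, and Atp5s, which is not a subunit of the ATP synthase, and it misses the acyl carrier protein Ndufab1 and the small ATP synthase protein Usmg5.

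Wild-type cells of both groups were stimulated with lipopolysaccharide (LPS), which macrophages sense as a sign of bacteria, at 200 ng/ml for 8 h. The LPS group of 3 libraries had no other treatment, and the LPS plus ultrasound group of 3 libraries also received 10 min of pulsed ultrasound during that time, in pulses of 200 µs repeated at 1 kHz (20% duty cycle), with a frequency of 1 MHz and an intensity of 50 mW/cm². The comparison asks which transcripts differ once ultrasound is added to LPS, and all 6 samples had LPS. Nothing in the labels says that the libraries of a group are separate cultures. The p-values therefore set the difference between the groups against the spread of these libraries, and that spread may be technical.

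Complexes I, III and IV pass electrons to oxygen and pump protons out of the mitochondrial matrix, complex II feeds electrons into the chain without pumping, and complex V, the ATP synthase, uses the proton gradient to make ATP. Mitochondrial DNA encodes hydrophobic core subunits of every complex except complex II, and it is transcribed as long precursors that are cut at the tRNAs into the single mRNAs. The other subunits are nuclear genes whose proteins are imported and assembled with the mitochondrially made ones. Macrophages stimulated with LPS are known for a shift from oxidative phosphorylation toward glycolysis.

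Values are FPKM, fragment densities scaled to transcript length and to the fragments of the library, so levels can be compared between genes per length. A log2 fold change is the mean log2(FPKM + 1) of the ultrasound libraries minus that of the LPS libraries, with its standard error from limma, a linear model fitted across all genes; the added 1 shrinks the change of low genes. The test was run on the 11270 genes whose 6 libraries averaged 1 FPKM or more, which kept 91 members, all 13 mitochondrial and 78 nuclear ones. The sum of FPKM ran from 278871 to 292200 per library. LPS library 2 stood apart for the mitochondrial members: it gave the minimum of the 6 libraries in 11 of 13 of them, against 11 of 78 nuclear members and 2838 of 11270 genes tested. Values that leaving it out moved by more than 1.5 times are mostly given with and without it, except for some near 0. The cell line label was matched by its markers: 10 of 11 macrophage markers averaged 1 FPKM or more (all but Mrc1), with a summed level of 2621 to 2856 FPKM in the LPS libraries and 2682 to 2942 with ultrasound. Because the extraction text in the labels describes muscle, muscle markers were read too: 9 of 10 were under 1 FPKM, Myh1, Myh2 and Myh4 were listed at 0 in every library, and Tnni2 had 28.4 FPKM, so that the summed level was 29.4 to 32.4 with LPS and 25.9 to 29.5 with ultrasound. In bulk RNA, fewer cells of a kind and less RNA per cell cannot be told apart.

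The mitochondrial mRNAs lay higher with ultrasound than with LPS alone, and the nuclear subunit mRNAs lay near 0 change. The median log2 fold change was 0.82 for the 13 mitochondrial members, of which 12 were positive, 0.04 for the 78 nuclear members, of which 54 were positive and 24 negative, and -0.02 for all genes tested. Without LPS library 2 these medians were 0.63, 0.07 and -0.02. No member passed a Benjamini-Hochberg adjusted limma p of 0.05, either in the fit without replicate pairs or with the replicate number as a block. Among all genes tested 0.0177% passed that threshold, all of them higher, and with the block 0.115%. The count depended on LPS library 2 and on the scale: 3 members passed without that library (0.071% of all genes), 2 without both libraries numbered 2 (0.0532%), 1 with libraries scaled to the same FPKM sum (0.0444%, also on the nuclear genes alone) and 6 with libraries weighted by their spread (1.98%), and all of these were mitochondrial. At an unadjusted limma p under 0.05, 7 mitochondrial members were higher and 0 lower, and 6 nuclear members were higher and 0 lower, where 6.18% of all genes tested were higher and 9.16% lower. In 8 of 13 mitochondrial members the lowest ultrasound library was above the highest LPS library. The same held for 9 of 78 nuclear members, and 4 lay the other way without overlap, against 9.8% of all genes higher and 13.4% lower. The log2 fold change was beyond 0.3 in either direction for 10 mitochondrial members and for 2 nuclear ones, Cox7a2l and Cox8a, against 14.4% of all genes. These are counts over genes that share their libraries, and the mitochondrial ones also share precursors, so they are not independent of each other.

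**Figure D1:**
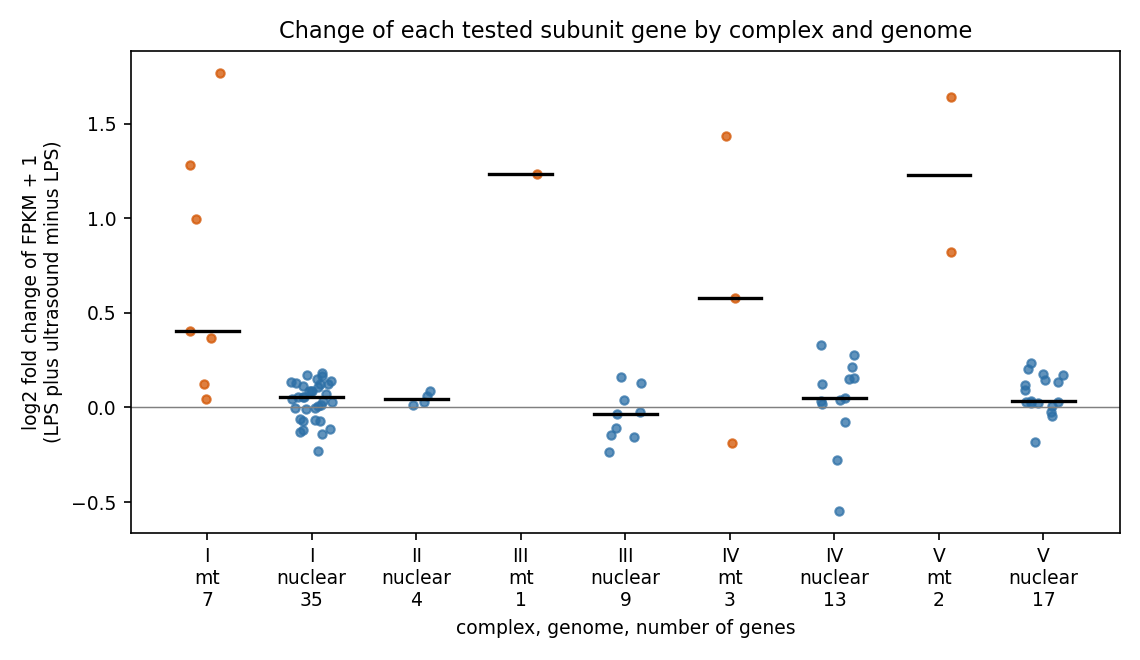
Log2 fold change of FPKM + 1 (LPS plus ultrasound minus LPS) of the 91 tested members, 1 point per gene, by complex and genome, with the number of genes under each column and a bar at the median. The mitochondrial points reach 1.77, while the nuclear points lie between -0.55 and 0.33.

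The mitochondrial genes lie head to tail with hardly any spacer, and some share bases with the next gene. The first sequence is the whole of mt-Atp8 (chrM:7766-7969, plus strand, GENCODE M21 on GRCm38), with the 43 bases it shares with the start of mt-Atp6 in capitals, and the second is the last 60 bases of mt-Nd4l (gene at chrM:9877-10173, plus strand), with the 7 bases shared with mt-Nd4 in capitals.
mt-Atp8: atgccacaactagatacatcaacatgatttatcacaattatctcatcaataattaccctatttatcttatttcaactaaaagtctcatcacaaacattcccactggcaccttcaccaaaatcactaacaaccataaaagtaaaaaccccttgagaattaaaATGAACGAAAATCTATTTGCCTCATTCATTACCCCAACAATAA
mt-Nd4l: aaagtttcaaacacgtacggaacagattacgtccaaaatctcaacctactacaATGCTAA
The protein-coding genes are single exons without introns. Annotated mt-Nd5 and mt-Nd6 overlap by 14 bases on opposite strands.

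Chromosome 1 carries an unprocessed pseudogene copy of a stretch of mitochondrial DNA, whose pieces are separate rows in the table. The next sequences show how close the copies are. The first are the starts of mt-Nd3 (gene at chrM:9459-9806) and its copy Gm28438, with the differing base in capitals. Then come the starts of mt-Co2 (chrM:7013-7696) and its copies. The last is a stretch of mt-Co1 (chrM:5328-6872), with capitals from the start of its alignment with the copy Gm29216 onward. The mitochondrial genes are on the plus strand and the copies on the minus strand, with Gm28438 at chr1:24612775-24613119, Gm28661 at chr1:24614885-24615565 and Gm13341 at chr2:22587291-22587962, and all sequences are GENCODE M21 transcripts read in their own sense.
mt-Nd3: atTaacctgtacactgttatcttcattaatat
Gm28438: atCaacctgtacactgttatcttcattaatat
mt-Co2: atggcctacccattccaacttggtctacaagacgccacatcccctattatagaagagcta
Gm28661: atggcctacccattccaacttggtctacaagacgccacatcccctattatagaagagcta
Gm13341: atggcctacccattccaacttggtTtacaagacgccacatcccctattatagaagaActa
mt-Co1: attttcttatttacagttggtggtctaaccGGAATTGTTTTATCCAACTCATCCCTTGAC
Counted from 1 at the first base of the gene, Gm28438 differs from mt-Nd3 by T3C and at no other of 345 aligned bases. Gm28661 on chromosome 1 has 0 mismatches to mt-Co2 over 681 bases, while Gm13341 on chromosome 2, at 95.9% identity, differs within the first 60 bases by C25T and G57A. Capitals in the Gm13341 line mark those bases, and the last line gives bases 1033 to 1092 of mt-Co1.

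Copies that cover nearly the whole gene on chromosome 1 were listed close to it, except for mt-Atp6 in LPS library 2. Gm28661 had 419 ± 53.3 FPKM with LPS and 1143 ± 225 with ultrasound (SD, n = 3), against 417 ± 53.1 and 1137 ± 224 for mt-Co2. The near-equal levels recurred for Gm28437 and mt-Co3, Gm10222 and mt-Nd4l, and Gm28438 and mt-Nd3, whose ratio of gene to copy ran from 0.856 to 1.00 in the 6 libraries. The copies of part of a gene lay lower, with Gm29216 at 3110 ± 481 FPKM with LPS against 9634 ± 1131 for mt-Co1, and Gm28439 at 865 ± 281 against 1282 ± 410 for mt-Nd4. Gm13341, whose sequence can be told from mt-Co2, had 0.784 ± 0.0772 and 2.18 ± 0.616 FPKM. Of windows of 100 bases, 99.5% in mt-Co2, 99.5% in mt-Atp6, 99.9% in mt-Co3, 98.5% in mt-Nd4l, 97.6% in mt-Nd3, 60.8% in mt-Nd4, 30.8% in mt-Co1 and 3.19% in mt-Nd2 occur identically in a copy. The 5 genes mt-Nd1, mt-Nd5, mt-Nd6, mt-Cytb and mt-Atp8 had 0 such windows. Their log2 fold changes were 1.28, 0.12, 0.04, 1.24 and 0.82 in that order. Without LPS library 2 they were 0.92, -0.09, -0.14, 0.95 and 0.74. The median of the 5, 0.82, is the value of mt-Atp8, which is also the median of all 13 mitochondrial members. How reads of the shared bases were divided between gene and copy is not given in the sources used here.

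**Figure D2:**
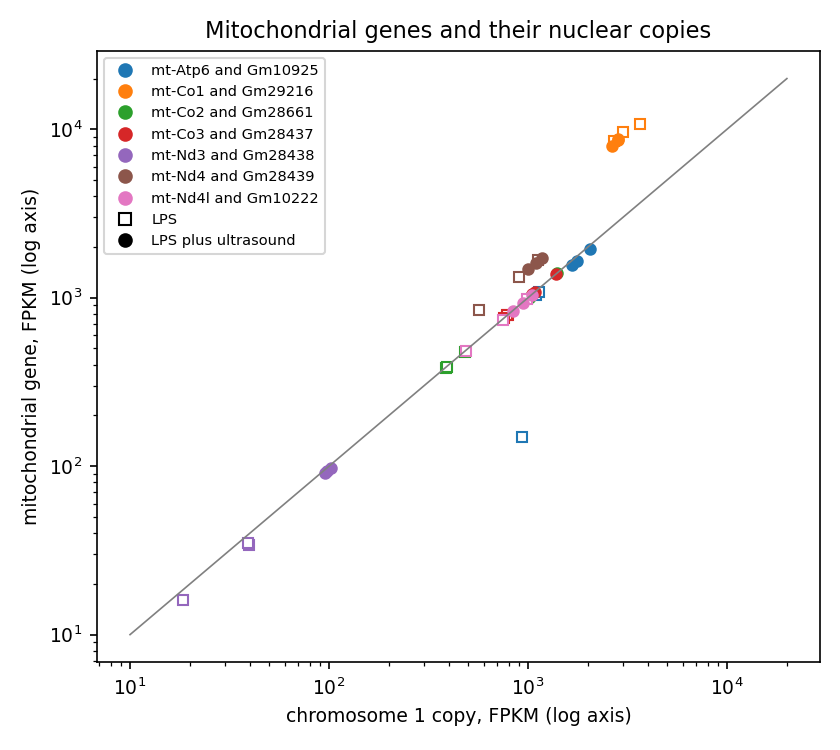
FPKM of 7 mitochondrial genes against their chromosome 1 copies in the 6 libraries, both axes logarithmic, open squares for LPS and filled circles for LPS plus ultrasound, with a line at equality. Most points lie on or near the line. mt-Atp6 in LPS library 2 lies far under it, at 149 FPKM against 930 for its copy Gm10925. mt-Co1 and mt-Nd4, only partly copied on chromosome 1, lie above it.

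Complex I takes 7 of its core membrane subunits from mitochondrial DNA, and they differed among themselves. mt-Nd3 (ENSMUSG00000064360), a small subunit where the membrane arm meets the matrix arm, had 33.9, 16.0 and 34.9 FPKM in LPS libraries 1 to 3 and 93.0, 97.1 and 90.5 in the ultrasound libraries. The groups did not overlap, and the lowest ultrasound value was above the highest LPS value by a wide margin. The ratio of means was 3.31 and the log2 fold change 1.77 ± 0.27 (limma, Benjamini-Hochberg adjusted p = 0.13). Without LPS library 2 it was 1.42 (limma, Benjamini-Hochberg adjusted p = 0.0036), a call that the full set of libraries does not give.

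mt-Nd1 (ENSMUSG00000064341), which helps form the ubiquinone pocket, had 813, 363 and 749 FPKM with LPS and 1459, 1563 and 1401 with ultrasound. The groups were separate, and the ultrasound libraries were closer to each other than the LPS libraries. Its log2 fold change was 1.28 ± 0.28 (limma, Benjamini-Hochberg adjusted p = 0.18), while leaving out LPS library 2 gave 0.92 (limma, Benjamini-Hochberg adjusted p = 0.026). mt-Nd2, a proton-pumping subunit, had 482, 235 and 531 FPKM with LPS and 831, 696 and 826 with ultrasound, again without overlap, with a log2 fold change of 1.00 ± 0.29 that became 0.63 without LPS library 2.

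The 4 complex I genes at the far end of the gene order overlapped between the groups. mt-Nd4, a pump subunit, had 1328, 851 and 1667 FPKM with LPS and 1607, 1471 and 1719 with ultrasound. Its small neighbour mt-Nd4l followed it library by library, at 742, 484 and 979 against 937, 833 and 1042, so that the ratio of mt-Nd4l to mt-Nd4 stayed between 0.559 and 0.606. In both genes LPS library 3 lay inside the ultrasound range and LPS library 2 was the lowest. Their log2 fold changes of 0.37 ± 0.23 and 0.40 ± 0.24 became 0.10 and 0.13 without LPS library 2.

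mt-Nd5, the pump subunit at the tip of the membrane arm, had 2551, 1860 and 3236 FPKM with LPS and 2745, 2316 and 3120 with ultrasound. mt-Nd6, the one mRNA of the other strand, had 2031, 1581 and 2635 with LPS and 2267, 1674 and 2443 with ultrasound, and its ratio to mt-Nd5 ran from 0.723 to 0.850. In both genes LPS library 3 was the highest of all 6 libraries and LPS library 2 the lowest. The log2 fold changes were 0.12 ± 0.21 and 0.04 ± 0.21, and they turned to -0.09 and -0.14 without LPS library 2. Poly(A) RNA was selected here, per the labels, and mt-Nd6 mRNA is known to carry little or no poly(A) tail. Its level also cannot be told from that of RNA of the opposite strand, since it is not stated that counting used the strand. The tRNA gene mt-Te, which is next to mt-Nd6 on the same strand, had 274 ± 71.5 FPKM with LPS and 310 ± 44.5 with ultrasound.

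**Figure D3:**
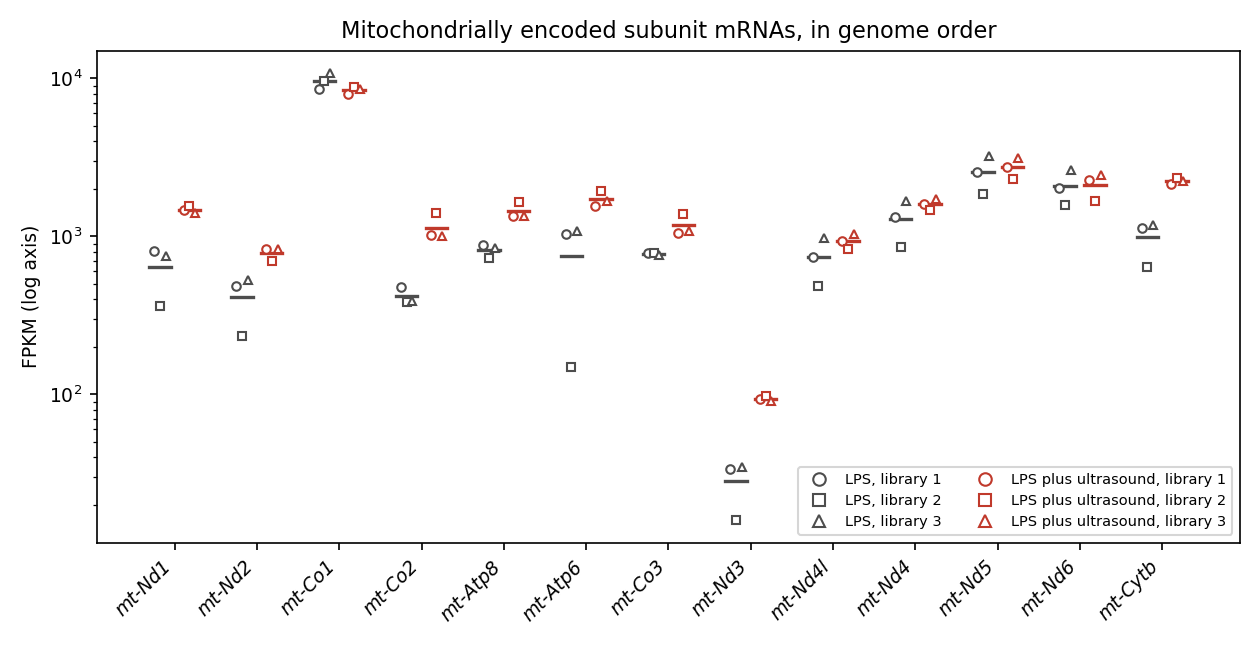
FPKM (log axis) of the 13 mitochondrial members in genome order, 1 point per library, with the symbol giving the library number and a bar at the group mean. The groups separate from mt-Nd1 and mt-Nd2 and from mt-Co2 to mt-Nd3 and again at mt-Cytb, and overlap at mt-Co1 and from mt-Nd4l to mt-Nd6.

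mt-Cytb (ENSMUSG00000064370), the cytochrome b of complex III and its one mitochondrial subunit, had 1137, 640 and 1176 FPKM with LPS and 2144, 2345 and 2229 with ultrasound. No LPS library came near the ultrasound range. The ratio of means was 2.27 and the log2 fold change 1.24 ± 0.22 (limma, Benjamini-Hochberg adjusted p = 0.14). Without LPS library 2 the value was 0.95 (limma, Benjamini-Hochberg adjusted p = 0.012). mt-Cytb has no identical nuclear copy in the annotation used; in gene order it follows mt-Nd6, whose log2 fold change was 0.04.

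The 3 catalytic core subunits of complex IV, cytochrome c oxidase, gave 3 different patterns. mt-Co1, which holds the heme-copper centre where oxygen is reduced, was the most abundant member of all, with 8531, 9581 and 10791 FPKM with LPS and 7929, 8764 and 8616 with ultrasound. The groups overlapped, the log2 fold change was -0.19 ± 0.11, and it is the one mitochondrial member with a negative value. In each pair of like-numbered libraries the ultrasound library was the lower one.

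mt-Co2 (ENSMUSG00000064354), the subunit that takes electrons from cytochrome c, had 479, 383 and 391 FPKM with LPS and 1013, 1396 and 1003 with ultrasound. LPS library 2 was close to LPS library 3 here, and the groups were far apart. The ratio of means was 2.73, the log2 fold change was 1.43 ± 0.15, and its p was the smallest of the members (limma, Benjamini-Hochberg adjusted p = 0.061). Scaling every library to the same FPKM sum took it past the threshold (limma, Benjamini-Hochberg adjusted p = 0.049), and so did scaling on the nuclear genes (limma, Benjamini-Hochberg adjusted p = 0.049), so the call depends on the scale of the libraries. Without LPS library 2 the log2 fold change was 1.38 (limma, Benjamini-Hochberg adjusted p = 0.13).

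mt-Co3, the third core subunit, had 788, 787 and 760 FPKM with LPS and 1051, 1379 and 1086 with ultrasound. The LPS libraries agreed closely and the groups did not overlap, with a log2 fold change of 0.58 ± 0.11. The balance within the complex therefore differed: mt-Co1 stood at 23.5 ± 5.08 times mt-Co2 with LPS and 7.56 ± 1.18 times with ultrasound (SD, n = 3), and mt-Co2 at 0.536 ± 0.0633 and 0.967 ± 0.0445 times mt-Co3. Neither ratio overlapped between the groups. A ratio within a library does not depend on how the libraries were scaled, but it carries whatever the division of reads with the copies put into either gene.

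Of the ATP synthase, mitochondrial DNA encodes the channel subunit a, mt-Atp6, and the small subunit mt-Atp8, from overlapping reading frames of 1 mRNA. mt-Atp8 had 882, 732 and 849 FPKM with LPS and 1348, 1654 and 1353 with ultrasound. The groups did not overlap, and the log2 fold change was 0.82 ± 0.11 (limma, Benjamini-Hochberg adjusted p = 0.13). mt-Atp6 had 1034, 149 and 1074 FPKM with LPS and 1567, 1946 and 1662 with ultrasound. The ratio of mt-Atp6 to mt-Atp8 was 0.203 in LPS library 2 and at least 1.16 in each of the other libraries, up to 1.26. The copy Gm10925, identical over 678 bases, had 1098, 930 and 1132 FPKM with LPS and 1659, 2057 and 1753 with ultrasound, with no such gap. The log2 fold change of mt-Atp6 was 1.64 ± 0.73 as listed, 1.04 with gene and copy added, and 0.70 without LPS library 2.

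The 13 mRNAs made up 7.47%, 6.16% and 8.67% of the FPKM sum with LPS and 8.73%, 8.94% and 9.28% with ultrasound. The ranges did not overlap, though LPS library 3 lay close to ultrasound library 1. Without mt-Co1, the shares were 4.41%, 2.82% and 4.91% with LPS and 5.96%, 5.94% and 6.27% with ultrasound. The nuclear members held 1.23% to 1.29% and 1.21% to 1.33%. The shares of the 13 mRNAs leave out the chromosome 1 copies, which count in the sum only. In LPS library 1, for example, Gm29216 had 2704 FPKM and Gm10925 had 1098. The share of LPS library 2 also holds the low mt-Atp6 value of 149 FPKM, beside 930 for Gm10925.

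The 2 genomes were then compared complex by complex. In each library the mean log2(FPKM + 1) of the nuclear subunits of a complex was subtracted from that of its mitochondrial subunits. This level difference was 4.84 ± 0.59 with LPS and 5.52 ± 0.22 with ultrasound in complex I, 4.20 ± 0.55 and 5.48 ± 0.07 in complex III, 4.61 ± 0.06 and 5.19 ± 0.09 in complex IV, and 4.29 ± 0.91 and 5.45 ± 0.14 in complex V (SD, n = 3). In complexes III, IV and V the groups did not overlap, while in complex I ultrasound library 2, at 5.29, lay just under LPS library 3, at 5.30.

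Each gene counts the same in these means, whatever its level. The balance between the genomes was shifted toward the mitochondrial mRNAs by 0.68 in complex I, 1.28 in complex III, 0.57 in complex IV and 1.16 in complex V, on the log2 scale. The mean change of the nuclear subunits themselves was 0.03, -0.04, 0.04 and 0.07 in the same order. Without LPS library 2 the shifts were 0.34, 0.96, 0.54 and 0.64, so those of complexes I and V moved by more than 1.5 times, and with both libraries numbered 2 left out complex V had 0.56. With the copies added to their genes the shift of complex V was 0.86. Complex IV was the least touched by LPS library 2, and its pooled SD within the groups, 0.08, was the smallest of the 4. Its shift is not a rise of the most abundant mRNA. mt-Co1 had a mean of 9634 FPKM with LPS and 8436 with ultrasound. The values were 417 and 1137 for mt-Co2, and 778 and 1172 for mt-Co3. No p is given, since the members were chosen with earlier results of these data known.

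**Figure D4:**
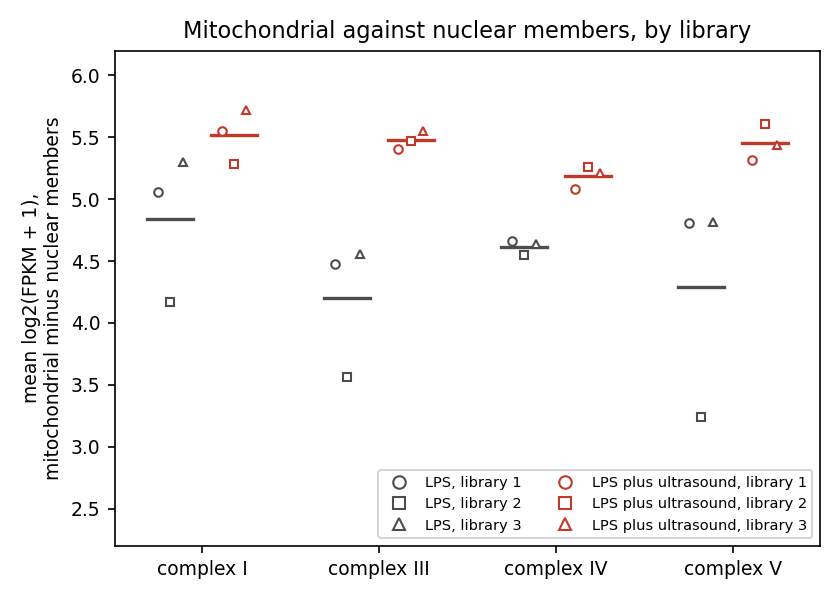
Mean log2(FPKM + 1) of mitochondrial minus nuclear members of complexes I, III, IV and V in each library, with the symbol giving the library number and a bar at the group mean. LPS library 2 lies lowest in all 4 complexes, at 3.24 in complex V, and close to the other LPS libraries in complex IV.

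The nuclear complex I genes had a median log2 fold change of 0.06 over 35 tested members, with 23 positive and 12 negative. The 7 nuclear core subunits, which carry the flavin and the iron-sulfur clusters, had a median of -0.0029, and the 28 accessory subunits 0.06. Without LPS library 2 these medians were 0.06 and 0.10, and that of the 35 was 0.08. The accessory subunit Ndufa10 was listed at 31.4, 32.2 and 29.9 FPKM with LPS and 35.8, 38.2 and 32.5 with ultrasound, separate by a narrow gap (log2 fold change 0.18 ± 0.08). Ndufv3, which sits beside the flavin subunit, went the other way, at 11.9, 13.6 and 12.4 against 10.6, 11.8 and 9.58 (-0.23 ± 0.10). The core subunit Ndufs7, which holds the last iron-sulfur cluster before ubiquinone, was also lower in every ultrasound library (-0.14 ± 0.07). Ndufa12 had 0.17 ± 0.10 with overlapping groups, and the most abundant nuclear member of the complex, Ndufa8, had 78.0 ± 2.79 and 78.4 ± 5.15 FPKM, with a log2 fold change of 0.01. The 35 nuclear genes ranged from -0.23 to 0.18, a range that holds mt-Nd5 and mt-Nd6, and the median of the 7 mitochondrial genes of the complex was 0.40, or 0.13 without LPS library 2.

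Complex II, succinate dehydrogenase, has no mitochondrial gene and served as the complex of 1 genome. All 4 genes lay near 0, with Sdha, the flavoprotein, at 0.03 ± 0.12, Sdhb, the iron-sulfur protein, at 0.09 ± 0.11, and the membrane anchors Sdhc and Sdhd at 0.01 ± 0.11 and 0.06 ± 0.07. Without LPS library 2 the values were 0.13, 0.16, 0.07 and 0.01 in that order. Every one of them overlapped between the groups. Sdhd was the highest, with 172, 154 and 167 FPKM with LPS and 173, 173 and 167 with ultrasound.

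Of the 9 nuclear genes of complex III, 3 were positive and 6 negative, with a median of -0.03, near that of all genes tested, beside 1.24 for mt-Cytb. Without LPS library 2 the nuclear median was -0.016. Cyc1, the cytochrome c1 that passes electrons on to cytochrome c, had 23.5, 25.9 and 21.3 FPKM with LPS and 20.6, 22.1 and 16.9 with ultrasound (-0.24 ± 0.12, and -0.13 without ultrasound library 3), with overlap but lower in each like-numbered pair. Uqcrc2, a core protein, had 60.5, 60.4 and 56.0 against 53.8, 55.0 and 49.8, without overlap (-0.15 ± 0.07). The hinge protein Uqcrh was the most abundant and was without overlap, at 93.6, 85.8 and 97.6 FPKM with LPS and 103, 98.5 and 101 with ultrasound (0.13 ± 0.07, and 0.080 without LPS library 2), and Uqcr11 had 0.16 ± 0.08.

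Nuclear complex IV genes held the widest range of the nuclear members, from -0.55 to 0.33. Ndufa4 (ENSMUSG00000029632), named for complex I but a subunit of cytochrome c oxidase, had 39.2, 34.1 and 38.2 FPKM with LPS and 45.6, 45.3 and 44.5 with ultrasound. The ultrasound libraries were close to each other and lay above all LPS libraries (log2 fold change 0.28 ± 0.07, limma, Benjamini-Hochberg adjusted p = 0.22). Cox6b1, which links the 2 monomers of the enzyme, had 119, 118 and 118 against 134, 151 and 129, also separate (0.21 ± 0.08). Cox7a2l, the factor that joins complexes III and IV, had 97.5, 96.6 and 134.8 against 134.9, 134.6 and 139.3, so that LPS library 3 sat with the ultrasound libraries (0.33 ± 0.13).

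Cox8a (ENSMUSG00000035885), a small membrane subunit, had the lowest log2 fold change of the nuclear members, -0.55 ± 0.26, from an uneven group. Its values were 201, 201 and 215 FPKM with LPS and 113, 225 and 109 with ultrasound. Ultrasound library 2 was the highest of all 6, so the groups overlapped, and the limma p with Benjamini-Hochberg adjustment was 0.37. Without both libraries numbered 2 the log2 fold change of Cox8a was -0.90 (limma, Benjamini-Hochberg adjusted p = 0.053). The remaining main isoforms gave small values, with Cox4i1 at 0.02 ± 0.09, Cox6a1 at 0.05 ± 0.11 and Cox7a2 at 0.15 ± 0.15, or 0.08, 0.13 and 0.00086 without LPS library 2.

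The isoforms of other tissues were scarcely detected. Cox4i2, Cox6b2, Cox7a1, Cox7b2, Cox8b, Cox8c and Ndufa4l2, which serve lung, testis, muscle or hypoxic cells, all had a mean under 1 FPKM over the 6 libraries, and Cox8c was listed at 0 in each. Cox6a2, the heart and muscle form, had 4.64, 8.86 and 3.23 FPKM with LPS and 2.98, 7.15 and 3.08 with ultrasound, high in library 2 of both groups (-0.28 ± 0.38, and 0.06 without LPS library 2). It shares 70 exon bases with Itgad on the opposite strand, which was listed at 0 to 0.024 FPKM. The eighth member not tested was a second identifier for Atp5o, listed at 0.

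**Figure D5:**
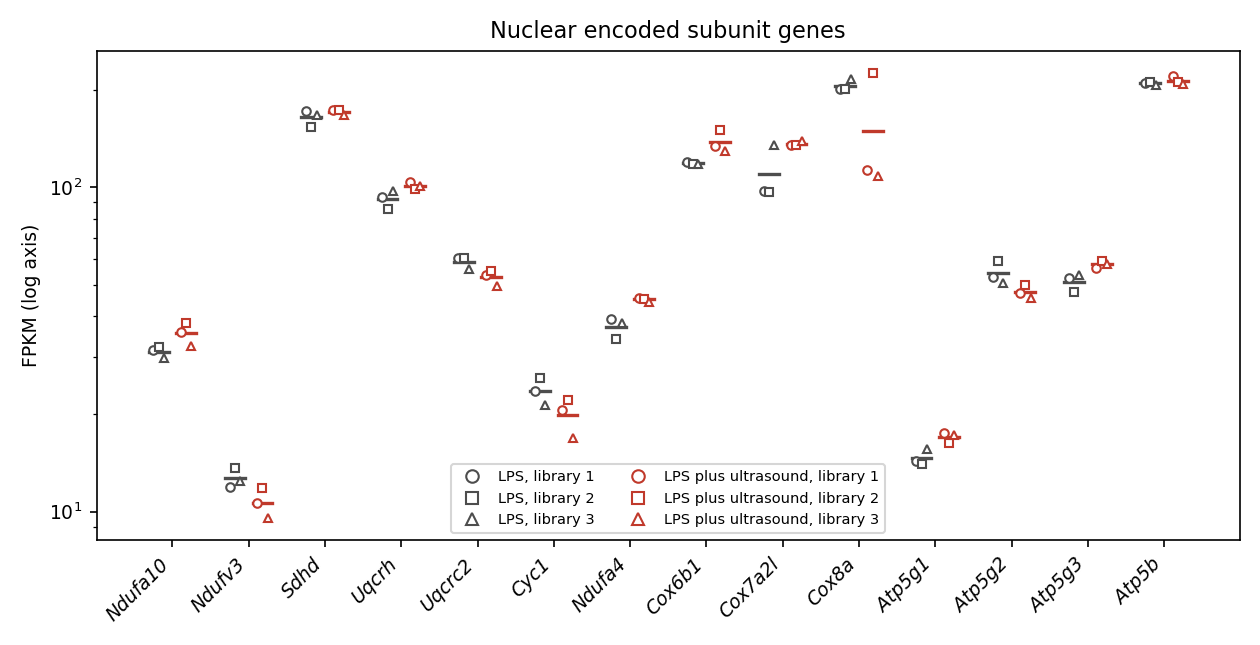
FPKM (log axis) of 14 nuclear members in the 6 libraries, ordered by complex, with the symbol giving the library number and a bar at the group mean. The shifts between the groups are small against the distance between genes, and Cox8a shows ultrasound library 2 apart from the other ultrasound libraries.

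The nuclear genes of the ATP synthase had a median log2 fold change of 0.03 over 17 tested members, 14 of them positive, against 0.82 and 1.64 for mt-Atp8 and mt-Atp6. Without LPS library 2 the nuclear median was 0.07. The 5 genes of the F1 head and central stalk, where ATP is made, ran from 0.02 to 0.09, with the catalytic beta subunit Atp5b the most abundant nuclear member at 209 ± 1.94 and 213 ± 5.80 FPKM. The small subunit Atp5k had 0.24 ± 0.13 and Atp5j2 -0.05 ± 0.07, both with overlap. The 3 genes Atp5g1, Atp5g2 and Atp5g3 encode the same c ring protein behind different import sequences. None of them overlapped between the groups, but they did not share a direction. Of all genes tested, 9.8% lay higher and 13.4% lower without overlap. Atp5g3 and, further on, Atp5j were taken up after their values were seen.

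Atp5g1 had 14.3, 14.0 and 15.6 FPKM with LPS and 17.5, 16.3 and 17.2 with ultrasound (0.20 ± 0.08), and Atp5g3 had 52.5, 47.7 and 53.5 against 56.4, 59.5 and 58.1 (0.18 ± 0.07). Atp5g2 went the other way, with 52.8, 59.1 and 50.9 against 47.1, 49.9 and 45.7 (-0.18 ± 0.08, and -0.12 without LPS library 2). None of the 3 passed the threshold, with limma p-values after Benjamini-Hochberg adjustment of 0.29, 0.31 and 0.33 in the order Atp5g1, Atp5g3, Atp5g2. A pseudogene nearly identical to Atp5g1, Gm10039, was listed at 38.0 ± 0.918 and 42.8 ± 1.63 FPKM, above Atp5g1 itself, and Gm10175, identical to Atp5g2 over 127 bases, at 26.7 ± 2.99 and 24.6 ± 0.388. In all, 13 nuclear members have such a pseudogene or copy with signal, so the division of their reads is uncertain.

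In the peripheral stalk, Atp5j had 21.6, 20.8 and 21.4 FPKM with LPS and 24.8, 24.7 and 22.8 with ultrasound, without overlap (0.17 ± 0.07). It shares 397 exon bases with Gabpa on the opposite strand, a subunit of the transcription factor GABP, which is known to act on subunit promoters. Gabpa had 9.06, 9.55 and 8.35 FPKM with LPS and 12.0, 11.9 and 11.5 with ultrasound, again separate (0.36 ± 0.08), and without strand the reads of the shared bases cannot be told apart.

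Promoter letters are a feature of the nuclear members that the choice by name did not use. GABP and NRF-1 are the factors best known at these promoters, and their motifs were searched on both strands as ACTTCCGG (reverse complement CCGGAAGT) for GABP and, for NRF-1, its consensus palindrome (the capitals in the promoter printed here), in RefSeq promoters (GRCm38.p6) of 250 bases before to 50 after the start. Of 69 promoters of 64 matched member genes, 7.25% (5) held the NRF-1 letters, against 0.971% of 32851 promoters of all genes. The GABP letters were held by 7.25% (5), against 3.89%. The rest of the 78 tested nuclear members had no matched promoter. The background covers 27025 genes and is not limited to the genes tested here, so promoters of expressed genes in general were not compared. NRF-1 letters were found for Atp5g2, Atp5k, Cox6a1, Ndufa11 and Uqcrc1, and GABP letters for Atp5h, Cox8a, Ndufs3, Uqcr11 and Uqcrh. Among the c ring genes only the Atp5g2 promoter held a motif, at chr15:102670998-102671297 on the minus strand. It is shown with the motif in capitals.
Atp5g2: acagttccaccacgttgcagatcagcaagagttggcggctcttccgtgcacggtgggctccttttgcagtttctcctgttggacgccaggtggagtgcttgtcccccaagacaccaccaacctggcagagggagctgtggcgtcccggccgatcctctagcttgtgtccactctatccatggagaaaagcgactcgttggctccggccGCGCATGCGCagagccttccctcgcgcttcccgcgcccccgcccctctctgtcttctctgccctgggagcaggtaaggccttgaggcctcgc
A match is a description of these letters and not a bound site. The genes with a match include values on both sides of 0, such as 0.24 for Atp5k and -0.18 for Atp5g2 with NRF-1 letters, and 0.16 for Uqcr11 and -0.55 for Cox8a with GABP letters.

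Genes around the complexes were read as lists: assembly factors of each complex, electron carriers, regulators of the nuclear subunits, markers of mitochondrial content and the 2 ribosomal RNAs. Of 78 listed genes 72 were tested, with 31 positive, 41 negative and a median of -0.02, and 0 passed the adjusted limma threshold, with 5 higher and 5 lower at an unadjusted p under 0.05, where 6.18% and 9.16% of all genes tested were. The complex I assembly factors had 5 positive and 14 negative of 19, median -0.10, with 5 lower and 1 higher without overlap, where 13.4% and 9.8% of all genes tested were. Among them Ndufaf4 had 3.41, 2.87 and 3.05 FPKM with LPS and 6.89, 3.45 and 6.67 with ultrasound (0.65 ± 0.22), while Dmac2 had -0.25 ± 0.09. The complex IV factors were 10 positive and 10 negative, with Cox20, a chaperone of the mt-Co2 protein, at 0.27 ± 0.09 and the copper proteins Cox11 and Cox17 at -0.20 ± 0.07 and -0.41 ± 0.15. Cox17 overlapped between the groups and had -0.26 without LPS library 2. Of the regulators, the coactivator Ppargc1b had 2.19, 3.56 and 2.27 FPKM with LPS and 1.33, 1.69 and 1.64 with ultrasound (-0.51 ± 0.16).

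The 8 genes of mitochondrial content, which include citrate synthase and the porins, had a median of -0.0027, with 3 positive and 5 negative. The chaperonin Hspd1 was the one with an unadjusted limma p under 0.05, at 302 ± 3.63 and 267 ± 14.9 FPKM (-0.18 ± 0.07). Mitochondrial DNA was not measured.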

How the data were processed

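Poly(A)-selected RNA was sequenced as paired ends, per the labels. The deposited values are FPKM per mouse Ensembl gene, computed by the authors. For the aligner, the quantifier and the build, "not given in the sources used here" holds, except that mRatBN7.2, a rat assembly, stands in the submitters' processing notes. Rat muscle is also the tissue of the extraction text. All 55335 identifiers are mouse ones, and the values were read as mouse data. The table holds no counts, so no interval for counting error is given. Symbols, biotypes and overlaps came from GENCODE M21 (55154 identifiers with a symbol), and copies from BLAST+ 2.17.0, at 95% identity over at least 100 bases, a limit set after the data were seen.

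The comparison used limma 3.58.1 (R 4.3.3) on log2 of FPKM plus 1, two-sided, robust and with a trend of variance on level. It covered 11270 genes averaging 1 FPKM or more (44065 fell below), and p-values were adjusted by Benjamini-Hochberg over all of them, with 0.05 as the threshold. The script was also run on simulated data in which each gene was drawn on its own. Those data had no shift shared by the genes of a library, such as that of LPS library 2, so that case was not tested. The titles number the libraries 1 to 3 in both groups. Deviations from the group means correlated at 0.18, 0.44 and 0.41 between like numbers and at -0.40 to 0.06 between unlike ones. These deviations cancel within a group, so positive values between like numbers push the unlike ones down, and the contrast can overstate the pairing. Like-numbered libraries were treated as pairs in an alternative fit with a block, a choice that rests on these same data. The titles do not say what a number shares. The members and lists were chosen with earlier results of these data known. Named genes were all mitochondrial members, the 2 highest and 2 lowest nuclear fold changes and the most abundant nuclear member per complex, the Sdh genes, tissue isoform pairs, and up to 3 genes per other list at an unadjusted p under 0.05. The 17 alternatives covered the pseudocount, the filter, scaling, moderation, weights, the block, left-out libraries and added copies.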

Additional observations from a re-analysis of the deposited data

How the results depend on the processing

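No member passed the adjusted threshold in the reported fit, with the 0.1 pseudocount, with no filter on low values, with median-ratio or quantile scaling, without the variance trend, or with copies added. The replicate block, which pairs the libraries by number, changed no member's call either (0 called, median log2 fold change of the mitochondrial members 0.82). Scaling to the same FPKM sum gave 1 call, scaling on the nuclear genes 1, sample weights 6 (mt-Nd1, mt-Nd3, mt-Cytb, mt-Co2, mt-Co3 and mt-Atp8), and leaving out both libraries numbered 2 gave 2 (mt-Nd3 and mt-Cytb). Leaving out 1 library gave 0 to 3, with the 3 (mt-Nd1, mt-Nd3 and mt-Cytb) without LPS library 2. The mitochondrial median was 0.50 with quantile normalization and 0.63 to 0.87 with 1 library left out. The complex IV shift was 0.48 with quantile normalization and 0.47 with sample weights. The shifts of all 4 complexes stayed positive under every alternative run. Beside the 697 higher and 1032 lower genes at an unadjusted limma p under 0.05 (40.3% higher), the same FPKM sum gave 30.2% higher, median-ratio scaling 48.5% and quantile normalization 48.4%. The cause of these moves was not tested.

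Some single log2 fold changes changed sign, and not only those near 0 in the reported fit. Farther from 0 in that fit were mt-Nd4 at 0.37, Cox6a2 at -0.28 and Cox7a2 at 0.15. With quantile normalization, which gives the most abundant gene 1 value in all libraries, mt-Co1 became 0, mt-Nd4 -0.046, mt-Nd6 -0.042, Ndufa8 -0.0046 and Sdhc -0.015. With the same FPKM sum Ndufa8 was -0.014, Sdhc -0.0092 and Cox4i1 -0.0012, and with sample weights Sdhc was -0.010. Without both libraries numbered 2, Ndufa8 was -0.0036, Sdhc -0.029 and Cox7a2 -0.034. With 1 library left out, the values ran from -0.086 to 0.31 for mt-Nd5, from -0.14 to 0.23 for mt-Nd6, from -0.027 to 0.062 for Ndufa8, from -0.0020 to 0.17 for Sdhb, from -0.090 to 0.079 for Sdhc, from -0.072 to 0.13 for Sdha, from -0.057 to 0.077 for Cox4i1, from -0.031 to 0.13 for Cox6a1 and from -0.62 to 0.060 for Cox6a2. FPKM hold no depth, so what the counts could detect is not known, and shared reads limit the 8 mitochondrial members with identical windows in copies.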

Other observations

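The other RNAs of mitochondrial DNA did not follow a single direction. The large ribosomal RNA mt-Rnr2, which comes from the same precursors as the mRNAs, had 112, 78.6 and 119 FPKM with LPS and 134, 143 and 140 with ultrasound, without overlap, with LPS library 2 the lowest. Its log2 fold change was 0.45 ± 0.15 (limma, Benjamini-Hochberg adjusted p = 0.26). Leaving out LPS library 2 gave 0.26. The small ribosomal RNA mt-Rnr1, at the start of the same precursor, had 207, 178 and 315 FPKM with LPS and 203, 148 and 220 with ultrasound, which overlapped (-0.27 ± 0.23, and -0.44 without LPS library 2). Poly(A) RNA was selected, so these levels need not follow the amounts of the ribosomal RNAs in the cells.

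Proteins of the complexes that the symbols left out gave values near those of the nuclear members. Ndufab1, the acyl carrier protein of complex I, had 7.73 ± 0.437 FPKM with LPS and 6.87 ± 0.362 with ultrasound (SD, n = 3), lower in every ultrasound library (-0.15 ± 0.08). Ndufb1-ps, which matched the names but is not annotated as protein-coding, had 10.5 ± 0.586 and 11.7 ± 1.02 FPKM, higher in every ultrasound library (0.15 ± 0.09). Usmg5, a small ATP synthase protein, had 12.7 ± 1.01 and 13.7 ± 0.560 FPKM (0.11 ± 0.08), and Atpif1, the inhibitor of ATP hydrolysis by the enzyme, had 47.5 ± 5.06 and 46.5 ± 4.74 (-0.03 ± 0.11).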
